A study of Mus musculus with 2 samples.

Results

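Transcripts of 9 genes of germ cell development and meiosis were followed while primed mouse pluripotent cells were reset towards the naive state. The genes were Dazl, Stra8, Hormad1, Smc1b, Asz1, Ddx4, Mael, Sycp1 and Sycp3, that is, 9 of the 33963 gene symbols of the table. They were chosen by their read levels and shares of cells in all 5 populations of the study, by their levels on either side of a split of the cells treated for 16 days, and by their joint detection in those cells. The levels, shares, ratios and joint detection given below are therefore a description and support no claim of their own. All 9 had reads.

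Germ cells arise from the epiblast as primordial germ cells, which erase most DNA methylation while they migrate to the gonad. Dazl and Ddx4 encode RNA-binding proteins that mark germ cells at and after that step. Stra8 is induced by retinoic acid at the entry into meiosis. Hormad1, Smc1b, Sycp1 and Sycp3 encode parts of the meiotic chromosome: Hormad1 an axis protein that recruits recombination factors, Smc1b a subunit of meiotic cohesin, Sycp3 a component of the axis and Sycp1 the transverse filament that joins the paired axes. Asz1 and Mael act in the piRNA pathway, which silences transposons in the male germ line. Many germline genes are known to be kept silent in other cells by DNA methylation or by a Polycomb complex with the DNA-binding proteins MGA, MAX and E2F6.

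The study labelled 5 populations with oligonucleotide tags and sequenced them as 1 pooled single-cell library, so each population was 1 sample without replicates. Naive cells were mouse embryonic stem cells of a Rex1-GFP reporter line. Primed cells were epiblast stem cells of the line Oct4GIP, and the labels give the strain of the pooled library as 129/Ola. Per the paper, this line was kept on fibronectin in a serum-free medium with FGF2 and Activin A. For the treatment it was plated on mouse embryonic fibroblast feeders the day before. The paper considers the Oct4-negative cells of the primed sample to be feeders. Primed cells received AICAR, which activates AMP-activated protein kinase, and the cytokine LIF over 8 days (d8) or 16 days (d16). The last population, d16+10p, was d16 cells grown for 10 further passages in 2iL, a medium of 2 kinase inhibitors and LIF that maintains naive cells. The naive cells thus differ from the other 4 populations in line as well as in state, and the effects of line and state cannot be told apart. Per the paper, naive cells were kept in 2iL, whereas AICAR and LIF were given in a medium with serum on feeders. Medium, drug and feeders therefore also differ between d16 cells and the naive and d16+10p cells, and their effects cannot be told apart from that of state. Medium, drug and LIF likewise differ between the primed and the d16 cells.

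Levels are summed reads of a gene over a group of cells, scaled to 1000000 reads of that group (CPM). Groups were formed within each tag by Dppa5a, a marker of naive cells, at 1000 CPM in a cell. This gave 1278 Dppa5a-high cells among 4315 at d16, 926 of 1151 at d16+10p, 570 of 801 in the naive population, 72 of 9627 at d8 and 62 of 1826 in the primed population. Because many primed-tagged cells had little or no Pou5f1, the gene of OCT4, the primed reference was a core of 462 cells with Pou5f1 at 200 CPM or more and Dppa5a under 1000 CPM. Cells had a median of 14255 reads in the d16, 24034 in the d16+10p and 23536 in the naive Dppa5a-high group, and 19592.5 in the primed core. Summed levels of 8 naive marker genes were 1725 CPM in naive, 1618 CPM in d16 and 1336 CPM in d16+10p Dppa5a-high cells and 201.3 CPM in the primed core, whereas 8 primed marker genes summed to 66.8, 94.3, 86 and 584.9 CPM in the same order. Macrophage markers summed to 278.9 to 746.3 CPM and fibroblast markers to 487.5 to 546.1 CPM over these 4 groups, and their part in the results was not tested. Intervals below are 95% counting intervals. Several reads can come from 1 molecule, so they cover counting error only, and no difference had a replicate check.

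The promoters of the 9 genes were examined for features that the choice of the genes did not use. RefSeq promoter windows (GRCm38.p6, 250 bases before to 50 after the start site) were found for all 9. The number of CpG dinucleotides, relative to that expected from base composition, had a median of 0.78 over the 9 windows and 0.39 over 27025 promoters. Smc1b had the highest ratio, 1.08, and 97.5% of all promoters had a lower one. Stra8 had the lowest, 0.43. In the GENCODE annotation, all 250 bases before the RefSeq start of Stra8 and 165 of the 250 of Ddx4 lie in exons of the same gene. The windows of these genes are thus not all upstream sequence in that annotation. The motifs searched, on both strands, were the E-box CACGTG, which MGA and MAX can bind, and the E2F-like sequences GGCGGGAA and GCGGGAAA, which can overlap each other. CACGTG occurred in 5 of the 9 windows and in 7.24% of all promoters, and an E2F-like sequence in 3 of the 9 and in 2.81% of all. Both kinds occurred together in Hormad1, Ddx4 and Sycp3, and in 0.263% of all promoters. Each of the 3 strings contains a CpG, and the shares over all promoters were not matched for CpG content. A match describes the letters and not binding.

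The 250 bases before the start site are shown for Hormad1 and Sycp3, which hold both kinds of motif, for Sycp1, which holds the E-box alone, and for Dazl, which holds neither. Capitals mark the motifs. The windows are chr3:95559427-95559676 on the plus strand, chr10:88459337-88459586 on the plus strand, chr3:102936101-102936350 on the minus strand and chr17:50293621-50293870 on the minus strand, each written 5′ to 3′ along the gene.
Hormad1: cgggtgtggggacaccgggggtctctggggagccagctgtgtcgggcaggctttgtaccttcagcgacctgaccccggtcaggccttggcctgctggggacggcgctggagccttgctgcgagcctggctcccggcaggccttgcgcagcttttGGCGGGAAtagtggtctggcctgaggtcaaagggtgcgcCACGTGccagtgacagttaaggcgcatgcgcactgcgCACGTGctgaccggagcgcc
Sycp3: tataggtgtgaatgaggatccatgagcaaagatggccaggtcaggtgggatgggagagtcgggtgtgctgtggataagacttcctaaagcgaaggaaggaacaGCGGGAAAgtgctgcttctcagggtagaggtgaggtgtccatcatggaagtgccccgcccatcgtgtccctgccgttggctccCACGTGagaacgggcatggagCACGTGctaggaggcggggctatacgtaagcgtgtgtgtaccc
Sycp1: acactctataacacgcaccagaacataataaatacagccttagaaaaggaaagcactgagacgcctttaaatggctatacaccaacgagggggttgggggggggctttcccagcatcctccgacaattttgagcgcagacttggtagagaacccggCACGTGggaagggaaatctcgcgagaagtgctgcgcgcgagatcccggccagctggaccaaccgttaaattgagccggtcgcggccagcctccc
Dazl: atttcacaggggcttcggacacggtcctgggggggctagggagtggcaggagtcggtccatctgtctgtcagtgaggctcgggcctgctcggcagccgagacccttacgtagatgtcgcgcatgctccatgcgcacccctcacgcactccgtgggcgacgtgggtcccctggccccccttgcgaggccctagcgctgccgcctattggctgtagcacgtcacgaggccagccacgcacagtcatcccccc

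The E-boxes of Hormad1 began 57 and 20 bases before the start site, with the E2F-like sequence 96 bases before it. Those of Sycp3 began 64 and 43 bases before the start, and its E2F-like sequence 147 bases before it. In Ddx4 the E-box lay 29 and the E2F-like sequence 137 bases before the RefSeq start. Both fall in the 165 bases that GENCODE places in a Ddx4 exon, so they lie after its GENCODE start. The single E-box of Sycp1 lay 94 and that of Mael 223 bases upstream. The 3 letter strings did not occur in the windows of Dazl, Stra8, Smc1b and Asz1, which says nothing of other sites for the same factors. The Stra8 window lies within the GENCODE gene, so the sequence before the GENCODE start of Stra8 was not searched.

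In the GENCODE annotation of the same build, the genes lie at chr17:50279395-50293636 (Dazl), chr6:34920163-34939344 (Stra8), chr3:95559677-95587671 (Hormad1), chr15:85064689-85131964 (Smc1b), chr6:18050964-18109061 (Asz1), chr13:112598333-112652475 (Ddx4), chr1:166201201-166238747 (Mael), chr3:102818499-102936100 (Sycp1) and chr10:88459569-88473236 (Sycp3). Sycp3 lies within Chpt1, a gene of phospholipid synthesis on the opposite strand, over 13668 bases. Whether counting used the strand is not given in the sources used here, so reads from the shared stretch cannot be told apart. Chpt1 was at 59.1 CPM in d16 Dppa5a-high cells, 62.1 CPM in the primed core and 60.8 CPM in naive Dppa5a-high cells, levels that did not follow those of Sycp3 below. Smc1b and Sycp1 overlap only pseudogenes.

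Dazl, over all cells of a tag, was at 150.1 CPM in the naive population, 52.1 CPM in the primed cells, 23.6 CPM at d8, 368.1 CPM at d16 and 221.9 CPM after the 10 passages. Split by Dppa5a, the d16 Dppa5a-high cells had 900.2 CPM (887.3 to 913.2) from 18701 reads, against 225.8 CPM (219.8 to 232) at d16+10p, 173.5 CPM (166.7 to 180.5) in naive Dppa5a-high cells and 27.8 CPM (24.6 to 31.3) in the primed core. The counting intervals of these 4 groups did not overlap. No single cell carried the d16 level. The most Dazl reads in 1 cell were 71, the median over the 1278 cells was 825.2 CPM, and 518 of the cells, 40.5%, had 1000 CPM or more. At d16+10p 38 Dppa5a-high cells (4.1%) and in the naive population 16 (2.81%) reached that value.

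Stra8 was at 330.8 CPM (323 to 338.7) in d16, 126.7 CPM (122.2 to 131.4) in d16+10p and 29.9 CPM (27.1 to 32.9) in naive Dppa5a-high cells, and at 16.5 CPM (14.1 to 19.3) in the primed core. The order was that of Dazl, with d16+10p further above naive. It was also the only one of the 9 genes with a higher level in Dppa5a-low than in Dppa5a-high cells at d16+10p, 220 CPM (203.5 to 237.6) in 225 cells, although 1 cell held 96 of those 651 reads.

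**Figure D1:**
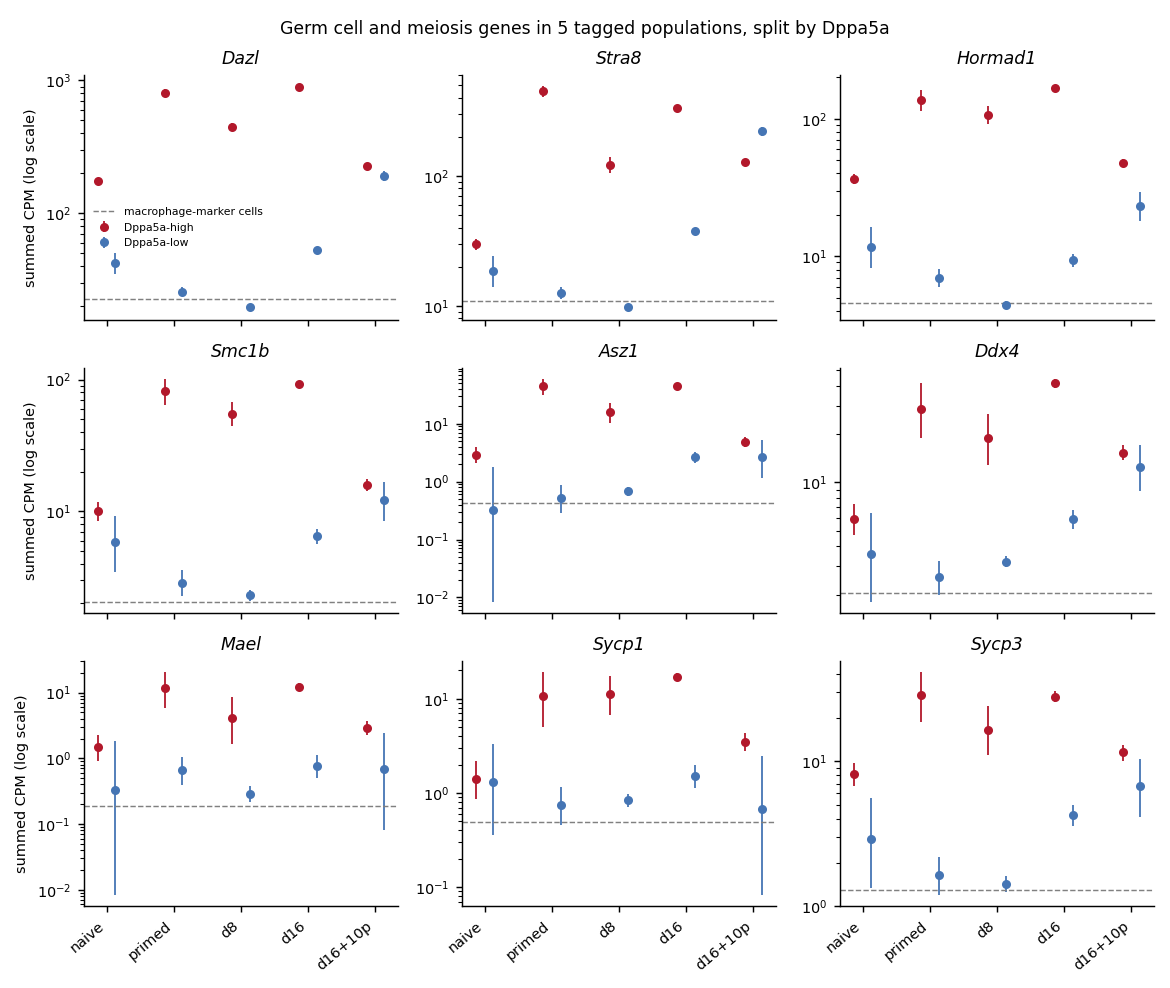
Summed CPM (log axis) of the 9 genes in Dppa5a-high (red) and Dppa5a-low (blue) cells of the 5 tags, with 95% counting intervals. The dashed line is the level in macrophage-marker cells. Dppa5a-high cells at d16 lie above naive and d16+10p cells for each gene.

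Among the genes of the meiotic chromosome, Hormad1 was at 168.2 CPM (162.7 to 173.9) in d16 Dppa5a-high cells, 47.8 CPM (45 to 50.7) at d16+10p, 36.6 CPM (33.5 to 39.8) in naive Dppa5a-high cells and 5.28 CPM (3.94 to 6.92) in the primed core. The cohesin gene Smc1b was at 93.2, 15.9, 10 and 3.15 CPM in the same order. Sycp3 stood at 27.9, 11.5, 8.11 and 1.52 CPM. Sycp1 had 17, 3.48, 1.41 and 0.203 CPM, the last from 2 reads. In these 4 genes the d16 level was the highest of the 4 groups, and its counting interval lay apart from the others.

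Asz1 and Mael of the piRNA pathway, and Ddx4, were ordered alike. Asz1 was at 45 CPM (42.2 to 48) in d16, 4.81 CPM (3.96 to 5.79) in d16+10p and 2.89 CPM (2.08 to 3.92) in naive Dppa5a-high cells, and at 0.609 CPM in the primed core, from 6 reads. Mael was at 12.2, 2.92, 1.48 and 0.914 CPM, and its intervals overlapped between d16+10p and naive and between naive and the primed core. Ddx4, the mouse homologue of Drosophila vasa, was at 41.3, 15.3, 5.93 and 2.74 CPM.

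Reads of these genes were also found in cells that should lack them, which sets a background. A set of 693 cells with a read of at least 6 of 8 macrophage markers and Dppa5a under 1000 CPM, with a median of 20899 reads per cell, had Dazl at 22.5 CPM (20.3 to 24.9), Stra8 at 10.9 CPM (9.37 to 12.7) and Hormad1 at 4.57 CPM (3.58 to 5.73). In these cells the 9 genes stood at 9.51% (Asz1) to 27.7% (Ddx4) of their level over all cells. To compare shares of cells at 1 depth, 5000 reads were drawn from each cell and cells with fewer were not used, 40 of 1278 in the d16 Dppa5a-high group and 21 of 693 macrophage-marker cells. A Dazl read then remained in 88.8% (86.9 to 90.5) of d16 Dppa5a-high cells and in 9.38% (7.28 to 11.8) of macrophage-marker cells. Without thinning the shares were 94.8% and 29.3%. The primed core, at 10.5% (7.74 to 13.8), could not be told from that background, and for none of the 9 genes did the interval of its share in the core lie above that of the macrophage-marker cells. In naive and in d16+10p Dppa5a-high cells 7 of the 9 genes lay above it, all but Mael and Sycp1, and in d16 Dppa5a-high cells all 9. By level, Stra8 in the core, 16.5 CPM (14.1 to 19.3), lay above the macrophage-marker cells, and the intervals of the other 8 genes overlapped between both. Of the 163 Stra8 reads of the core, 31 came from 1 cell, and the level without that cell was not computed.

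For the other genes the thinned share in d16 Dppa5a-high cells, with that in macrophage-marker cells second, was 56.1% and 4.91% for Stra8 and 40.6% and 2.08% for Hormad1. For Smc1b it was 31.3% and 0.744%, and for Asz1 16.1% and 0.149%. Ddx4 had 14.5% and 0.744%, Sycp3 11.3% and 0.595%, Sycp1 6.46% and 0.149%, and Mael 5.01% and 0.149%. Each gene was thus read in a larger share of the d16 cells than of the macrophage-marker cells, and for Mael and Sycp1 that share was still a small part of the cells. The unthinned shares in d16 Dppa5a-high cells ran from 10.9% for Mael and 13.2% for Sycp1 to 58.9% for Hormad1 and 71.8% for Stra8. In naive Dppa5a-high cells the thinned shares ran from 0.714% for Mael to 37.9% for Dazl.

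In the comparison of d16 Dppa5a-high cells with the primed core, which bears on what had changed from the starting cells, all 9 genes were at least 2-fold higher and 0 lower. Of 12882 genes with 5 CPM or more in either group, 8.99% were at least 2-fold higher and 3.11% at least 2-fold lower. The median log2 ratio was 4.24 for the 9 genes and 0.05 for all genes tested. The genes had been chosen on these levels, so nothing is read from their count here or in the next 3 comparisons. The ratio of Dazl was 32.4-fold (28.7 to 36.6), and that of Stra8 20-fold (17.1 to 23.5). For Hormad1 it was 31.9-fold (24.2 to 42.7) and for Smc1b 29.6-fold (20.8 to 43.7). The ratios of Asz1, 73.9-fold (33.8 to 201.9), and Sycp1, 83.7-fold (23 to 693.7), rest on 6 and 2 reads in the core. Among all genes tested, in order of log2 ratio with a pseudocount of 1 CPM, Dazl was at place 2, Asz1 at place 4 and Hormad1 at place 6. Of the Dazl reads of the core, 20.1% came from 2 cells with Dazl at 1000 CPM or more, and without those the core stood at 22.3 CPM and the ratio at 40.4-fold.

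Against naive Dppa5a-high cells, which bears on how the d16 cells differ from established naive cells, all 9 genes were again at least 2-fold higher and 0 lower. Of 12702 genes, 3.72% were higher and 1.55% lower by that margin, and the choice of the 9 genes had used the levels of both populations. The median log2 ratio was 2.61, against 0.11 over all genes tested. Asz1 had the largest ratio, 15.6-fold (11.4 to 21.8), followed by Sycp1 at 12-fold (7.68 to 20) and Stra8 at 11.1-fold (10 to 12.2), whose intervals overlap. Sycp3 had the smallest, 3.44-fold (2.81 to 4.24). The ratio of Dazl was 5.19-fold (4.97 to 5.41).

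After 10 passages in 2iL the 9 genes were at lower levels. All 9 were at least 2-fold higher in d16 than in d16+10p Dppa5a-high cells and 0 lower. Of 12566 genes, 2.20% were higher and 0.668% lower by that margin, and the choice of the genes had used both populations here too. The ratio ran from 2.43-fold (2.1 to 2.82) for Sycp3 to 9.35-fold (7.68 to 11.5) for Asz1, with Dazl at 3.99-fold (3.87 to 4.11) and Stra8 at 2.61-fold (2.5 to 2.73). These comparisons share the d16 cells.

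The passaged cells were then compared with naive cells directly. Of the 6 genes with 5 CPM or more, 2 were at least 2-fold higher at d16+10p, Stra8 at 4.24-fold (3.82 to 4.7) and Ddx4 at 2.59-fold (2.04 to 3.32), and 0 were lower. Of 12297 genes, 1.13% were higher and 1.22% lower by 2-fold. The ratio was 1.3-fold (1.24 to 1.37) for Dazl, 1.31-fold (1.18 to 1.45) for Hormad1, 1.41-fold (1.13 to 1.77) for Sycp3 and 1.59-fold (1.3 to 1.94) for Smc1b. Stra8 and Ddx4 were thus the genes with the widest gap between passaged and naive cells among these 6, and the call for Ddx4 was lost with a pseudocount of 10 CPM and with cells thinned to 5000 reads.

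**Figure D2:**
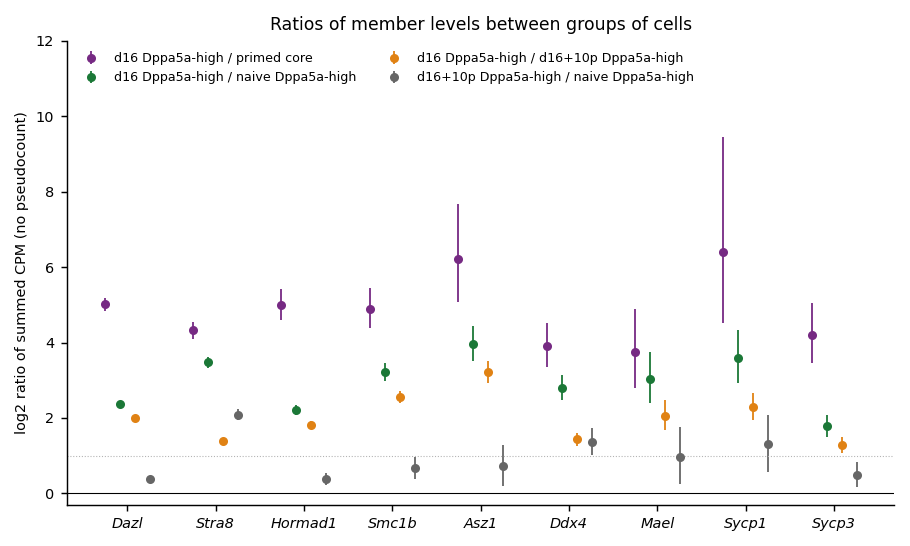
Log2 ratios of summed CPM, without pseudocount, for the 9 genes in 4 comparisons, with 95% counting intervals. The dotted line marks 2-fold. Ratios of d16+10p over naive cells (gray) pass it for Stra8 and Ddx4 with an interval that stays above the line.

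Within d16 the choice of the genes had used the split by Dppa5a as well, so nothing is read from that contrast. All 9 genes were at least 2-fold higher in the Dppa5a-high cells, where 11.3% of 13642 genes were, and 0 were lower, where 17.1% were. The d16 Dppa5a-high cells gave 6.76% of all reads of the pool and held 54% of its Dazl, 45.8% of its Stra8 and 67% of its Asz1 reads. Across the threshold the level changed in steps. Dazl stood at 26.4 CPM in the 2675 d16 cells with Dppa5a under 250 CPM, 123.4 CPM between 250 and 500, 544.6 CPM in the 111 cells between 500 and 1000, 685.5 CPM in the 81 cells between 1000 and 1500, and 927.9 CPM in the 833 cells at 3000 or more. Stra8 was highest in the bin just below the threshold, at 497.3 CPM, in cells with a median of 6745 reads. It did not fall steadily above the threshold. Its level was 388.5 CPM just above it, 420.5 CPM in the 364 cells between 1500 and 3000, and 285.4 CPM in cells with Dppa5a at 3000 CPM or more.

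Small groups of Dppa5a-high cells carried other tags. The 62 primed-tagged ones had Dazl at 803.1 CPM (747 to 862.3), Stra8 at 449.1 CPM (407.4 to 493.9) and Asz1 at 44.4 CPM (32 to 60), levels nearer to those of d16 Dppa5a-high cells than of the primed core. Their naive markers summed to 1258 CPM and their primed markers to 215.6 CPM. Of the Dazl reads of the primed tag, 760 of 1453 lay in these 62 cells, and without them the tag stood at 25.7 CPM in place of 52.1 CPM. The 72 such cells at d8 had Dazl at 444.6 CPM (413.4 to 477.5) and Stra8 at 122 CPM (106 to 139.9), and their macrophage markers summed to 5044 CPM, against 278.9 CPM in d16 Dppa5a-high cells. Whether the tags of these cells were assigned correctly was not tested. Neither group entered the comparisons above.

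In single d16 Dppa5a-high cells thinned to 5000 reads, a mean of 2.7 of the 9 genes had a read, and 310 of 1238 cells (25%) had 4 or more. In d16+10p Dppa5a-high cells the mean was 1.15 and 2.42% had 4 or more. In naive Dppa5a-high cells the mean was 0.748, with 1.07% at 4 or more. The primed core, at 0.214, and the macrophage-marker cells, at 0.189, lay close together, and 82.1% and 82.9% of their cells had none of the genes. The most in any d16 Dppa5a-high cell was 7.

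**Figure D3:**
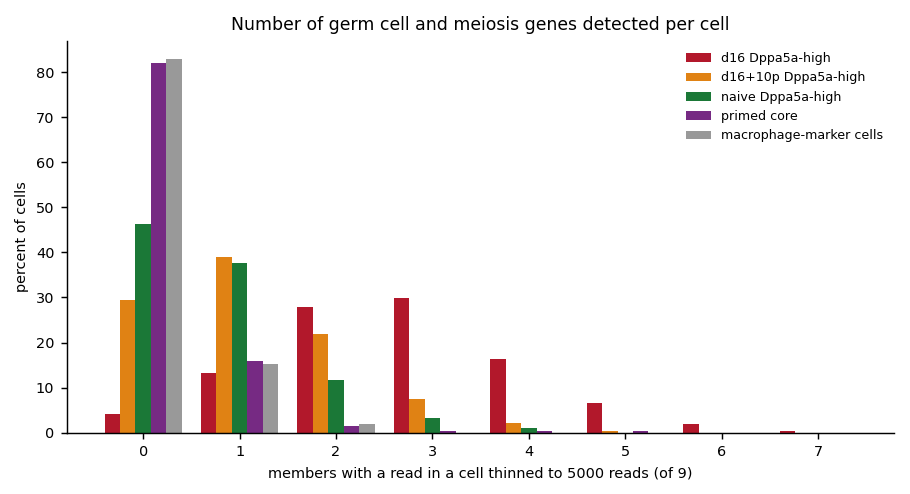
Percent of cells (vertical axis) by the number of the 9 genes with a read after thinning to 5000 reads, for 5 groups of cells. The d16 Dppa5a-high cells peak at 3 genes, and the primed core and macrophage-marker cells at 0.

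The genes tended to be read in the same cells. Joint detection in d16 cells was part of the choice of the genes, so the counts and shares here are a description only. In 32 of the 36 pairs the share of cells with 1 gene was larger among cells with the other, and in 8 pairs the counting intervals of both shares did not overlap. Pairs of other genes were not counted in these cells, so whether the counts are particular to these genes was not tested. Stra8 was read in 59% (56 to 61.9) of the 1099 cells with a Dazl read and in 33.1% (25.4 to 41.6) of the 139 without. Hormad1 was read in 54.3% (47.1 to 61.3) of cells with Asz1 and in 38% (35.1 to 41) of those without. For Stra8 split by Sycp3 the shares were 70% (61.7 to 77.4) and 54.3% (51.3 to 57.3). The cells all come from 1 sample. With 10000 reads per cell the Stra8 shares were 63.5% (60.2 to 66.7) in the 890 cells with Dazl and 50.9% (36.8 to 64.9) in the 53 without, so the gap was 12.5 percentage points in place of 25.9. At that depth the intervals overlapped for Stra8 split by Dazl, and for Stra8 split by Sycp3, 69.3% (61.3 to 76.5) and 61.5% (58 to 64.9). They also came to overlap for Dazl split by Hormad1 and by Smc1b, Stra8 split by Asz1 and Ddx4 split by Sycp1. Of the 8 pairs, only 2 stayed apart. These were Hormad1 split by Asz1, 64.6% (58.2 to 70.6) and 49.2% (45.5 to 53), and Asz1 split by Sycp1, 38.5% (29.1 to 48.5) and 23.8% (21 to 26.9). Stra8 split by Mael changed direction with depth, from a difference of -6.4 percentage points at 5000 reads to 2.1 at 10000, within counting error at both. Ddx4 split by Mael did so too, from -6.8 to 8.1 percentage points, with intervals that overlapped at both depths.

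**Figure D4:**
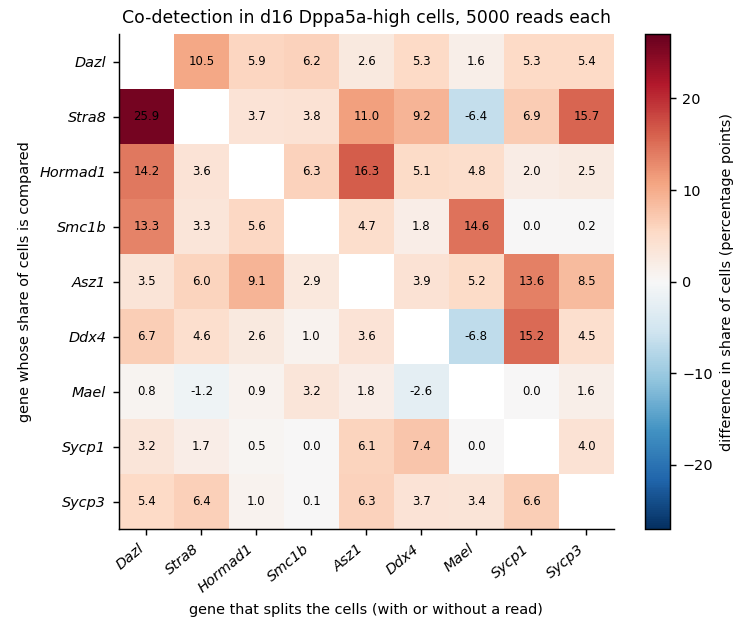
Difference, in percentage points, between the share of d16 Dppa5a-high cells with a read of the row gene among cells with and among cells without a read of the column gene, at 5000 reads per cell. Stra8 split by Dazl has the largest value, 25.9.

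Cells were also grouped by their Stra8 level. Among d16 Dppa5a-high cells 146 of 1278 (11.4%) had Stra8 at 1000 CPM or more, and these held 38.5% of its reads. The grouping by Stra8 itself raises that share, and whether Stra8 was more unevenly spread than other genes was not tested. They had Dppa5a at 3103 against 3787 CPM in the other cells, Pou5f1 at 300.2 against 349.7 CPM, and a median of 11649 reads per cell against 14694.5. The value of 1000 CPM and this grouping were chosen after the data were seen. Of 12885 genes, 1.27% were at least 2-fold higher in the Stra8-high cells, and of the other 8 genes 0 were. Dazl was at 1243 against 867 CPM, a ratio of 1.43-fold (1.37 to 1.5), and the ratio was 1.79-fold (1.31 to 2.41) for Sycp1, 1.66-fold (1.29 to 2.1) for Sycp3, 1.34-fold (1.08 to 1.64) for Asz1 and 0.92-fold (0.812 to 1.04) for Hormad1.

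Among 19 tested genes of a list of meiotic chromosome genes, 4 were at least 2-fold higher in the Stra8-high cells. Rec8, a meiotic cohesin subunit that like Stra8 is known to be induced by retinoic acid, was at 61.2 against 17.7 CPM, a ratio of 3.45-fold (2.76 to 4.29). Sycp2, a partner of Sycp3 in the axis, was at 9.3 against 2.59 CPM from 17 and 49 reads, with 9 of the 17 in 1 cell. Tex11, which acts in synapsis and recombination, was at 15.3 against 5.28 CPM, and Mei4, which acts in the formation of meiotic DNA breaks, at 15.3 against 4.91 CPM. Outside that list, Dmrt1, a transcription factor of the gonad and germ cells, was at 108.3 against 33.7 CPM, a ratio of 3.21-fold (2.72 to 3.77). Meioc, needed to keep cells in meiosis, was at 20.8 against 8.81 CPM, a ratio of 2.36-fold (1.61 to 3.37). These genes were named after their values in both d16 and d16+10p were seen.

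The d16+10p population held 28 cells with Stra8 at 1000 CPM or more among 1151. Of these, 19 were Dppa5a-high (2.05% of such cells) and 9 Dppa5a-low (4%), whereas the d16 set held Dppa5a-high cells only. Rec8 was at 55.6 against 12.5 CPM, a ratio of 4.45-fold (2.95 to 6.48), and Dmrt1 at 118.6 against 25.3 CPM, a ratio of 4.7-fold (3.57 to 6.08). Meioc was at 44.5 against 6.77 CPM, and Tex11 at 22.2 against 5.37 CPM from 12 reads in the Stra8-high cells. Mei4, with 2 reads there, stood at 3.71 against 4.87 CPM. Of 15 tested meiotic chromosome genes 7 were at least 2-fold higher, and of the other 8 members 6 of 7 tested, where 8.81% of 13212 genes were. Hormad1 was the exception, at 33.4 against 45.3 CPM. The members' counts are small: Dazl was at 563.4 against 214.8 CPM with 99 of its 304 reads in 1 cell, and Sycp1 had 7 of 8 reads in 1 cell. The 10 genes with the largest ratio at d16 were taken among genes with 20 CPM or more in its Stra8-high cells. That filter could be passed only through the group where they are high, so their recurrence is a description. Of these 10, 7 had 5 CPM or more in either group at d16+10p. Of the 7, 5 were again at least 2-fold higher (Rec8, Dmrt1, Cntln, Gm15262 and Rhox9). Dppa5a was at 1835 against 2758 CPM, and the part of the Dppa5a-low cells in that gap was not tested.

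**Figure D5:**
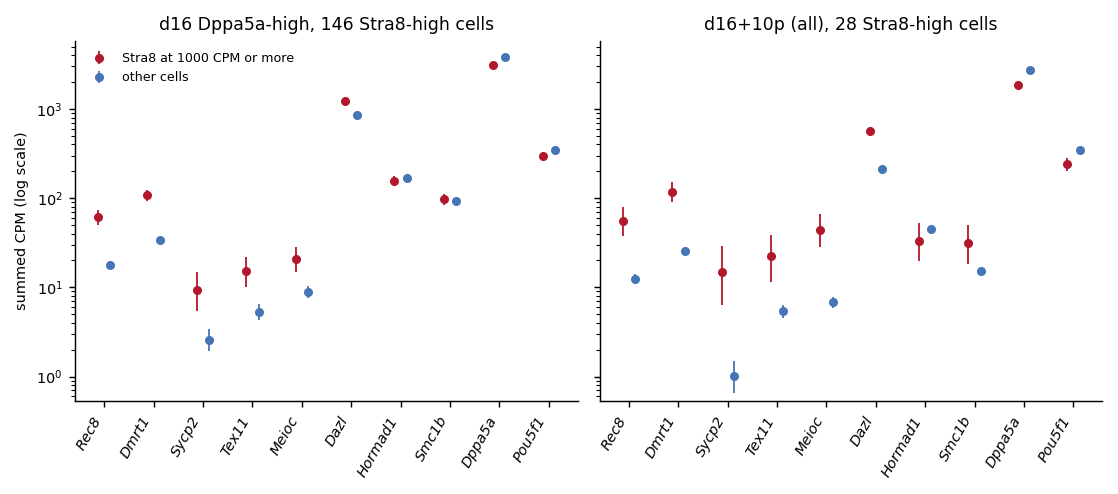
Summed CPM (log axis) of 10 genes in cells with Stra8 at 1000 CPM or more (red) and in the other cells (blue), for d16 Dppa5a-high cells (left) and all d16+10p cells (right), with 95% counting intervals. Rec8, Dmrt1, Sycp2, Tex11 and Meioc are higher in the Stra8-high cells of both, and Dppa5a is lower.

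The d16 Dppa5a-low group also held 33 Stra8-high cells among 3037, with 52.5% of the Stra8 reads of that group, and 2658 of 13947 genes were at least 2-fold higher in them than in the rest. They had Dazl at 1143 against 39.9 CPM, Smc1b at 187.2 against 4.33 CPM, Dmrt1 at 162.6 against 2.8 CPM and Dppa3, a gene of germ cells and the early embryo, at 423.7 against 9.53 CPM. Their Dppa5a was at 635.5 CPM and Pou5f1 at 243.9 CPM, against 94.2 and 37.5 CPM in the rest of that group.

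Other germ cell genes were counted on lists written with earlier results known. Relative to the primed core, 8 of 10 tested primordial germ cell genes were at least 2-fold higher in d16 Dppa5a-high cells, where 8.99% of all genes tested were. Examples are Dppa3 at 118.5 against 5.69 CPM, Dppa4 at 41.7 against 2.33 CPM, Dppa2 at 89.9 against 7.61 CPM and Prdm14, a regulator of germ cell specification, at 17.1 against 0.914 CPM. Lin28a, at 19 against 124.7 CPM, was the 1 lower, where 3.11% of all genes were. All 8 naive markers were also at least 2-fold higher than in the core. Their median log2 ratio was 3.57, against 2.72 for the tested primordial germ cell genes. The paper names Prdm14 among genes whose transfection reverts primed cells. Whether the list differs apart from the change from primed to naive state was not tested. Relative to naive Dppa5a-high cells 4 of the 10 primordial germ cell genes were higher, where 3.72% of all genes were. Relative to d16+10p 0 of 10 passed 2-fold in either direction, where 2.20% of all genes were higher and 0.668% lower, with Dppa3 at 147.3 CPM, Dppa2 at 86.3 CPM and Tfap2c at 55.8 CPM (66.8 CPM at d16) after passaging. The median log2 ratio of the list between d16 and d16+10p was 0.13, against 1.79 for the 9 genes and 0.09 for all genes tested. The choice of the 9 genes had used both populations, so nothing is read from the gap between 0.13 and 1.79.

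Of 10 tested piRNA pathway genes, 7 were at least 2-fold higher than in the primed core and 2 lower, where 8.99% and 3.11% of all genes tested were, with a median log2 ratio of 2.62 against 0.05 over all genes. Rnf17 was at 60.5 against 1.93 CPM and Fkbp6 at 33.1 against 1.42 CPM, whereas Tdrkh was at 17.5 against 88.8 CPM. Of 16 tested meiotic chromosome genes 10 were higher and 0 lower in that comparison, with a median log2 ratio of 2.38. Rec114, which acts with Mei4, was at 35.7 against 1.02 CPM, Syce1 of the synaptonemal complex at 20.3 against 0.406 CPM, Hormad2 at 18.7 against 0.711 CPM and Rec8 at 21.6 against 1.22 CPM. Relative to d16+10p 2 of 16 were higher, where 2.20% of all genes were, with a median of 0.53 against 0.09. Of 3 tested meiotic entry genes 2 were higher than in the core, beside the same 8.99% of all genes, with Sohlh2, a transcription factor of early germ cells, at 57.5 against 1.52 CPM.

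Among 13 tested germline genes whose promoters are known to be methylated in somatic cells, 11 were at least 2-fold higher than in the primed core and 1, Tdrkh, lower, where 8.99% and 3.11% of all genes tested were. Relative to naive and relative to d16+10p Dppa5a-high cells 8 of 13 were higher and 0 lower, where 3.72% and 2.20% of all genes were higher, with median log2 ratios of 1.39 and 1.13 against 0.11 and 0.09. Rhox13 was at 46.3 CPM in d16 Dppa5a-high cells and 0.812 CPM in the primed core, with 16.2 CPM after passaging and 4.09 CPM in naive Dppa5a-high cells. Tuba3a was at 62.2 against 3.86 CPM between d16 and the core but at 66.4 CPM in d16+10p, so not every gene of the list was lower after passaging. Fkbp6, Tdrkh, Mov10l1 and Piwil2 stand on this list and on the piRNA list.

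Genes of the Polycomb complex of MGA, MAX and E2F6 and its partners had a median log2 ratio of 0.17 between d16 and the core, against 0.05 over all genes. Of 13, 1 was at least 2-fold higher, Wdr5 at 123.6 against 57.9 CPM, and 0 lower, a share near the 8.99% of all genes that were higher, with Mga at 118.1 against 86.6 CPM, Max at 45.2 against 40 CPM and E2f6 at 19.8 against 33.6 CPM. Of 13 tested genes of the retinoic acid pathway, 3 were at least 2-fold lower, with Crabp2, a carrier of retinoic acid, at 12.9 against 38.9 CPM, where 3.11% of all genes were lower, and the median log2 ratio of the list was -0.32.

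Over the 10 groups formed by 5 tags and the Dppa5a split, the levels of 9559 genes with 20 CPM or more in some group were set against Dazl and Stra8 on a log2 scale. The groups share 1 library and differ in depth and purity, so the coefficients only rank genes. Closest to Dazl were Sohlh2 (r = 0.995), Sycp3 (0.991), Rhox2a (0.988), Stk31 (0.987) and Hormad1 (0.985). Rhox2a has near-identical copies that can share reads. Closest to Stra8 were Gm4779 (0.973), 8030474K03Rik (0.971), Dmrt1 (0.969), Ephx2 (0.967) and Ddx4 (0.958). In the ranking for Dazl, Sycp3 was at place 2, Smc1b at 12, Ddx4 at 24, Asz1 at 66 and Stra8 at 72. In d16+10p Dppa5a-low and Dppa5a-high cells Dmrt1 was at 29.1 and 26.9 CPM, whereas Sohlh2 was at 11.2 and 18.3 CPM.

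A few d16 cells had reads of genes of the 2-cell stage embryo. Of the d16 Dppa5a-high cells 39 had at least 5 such reads, and in these Dazl was at 1181 CPM (1092 to 1275), Sycp1 at 41.6 CPM (26.4 to 62.5) and Hormad1 at 94.2 CPM (70.3 to 123.5). In the other 1239 cells Dazl was at 892.5 CPM, Sycp1 at 16.3 CPM and Hormad1 at 170.2 CPM. Without cells of this kind all 9 genes were still at least 2-fold above the primed core, naive and d16+10p cells.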

How the data were processed

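The deposited table holds counts: reads per gene symbol in each cell, as whole numbers, made by the authors with cutadapt 2.10 for trimming and Bowtie2 2.3.4.1 for mapping to transcripts of mouse build GRCm38. Per the study's methods, the authors took each cell's population from its tag and removed tag doublets. No collapsing of molecular identifiers is described, and no further doublet caller was run. All 33963 genes and 17720 cells (3179 to 111822 reads each, 307121033 in all) were used. The members and gene lists were chosen with earlier results of these data known. With 1 sample per population no test was made. CPM carry exact Poisson, shares Clopper-Pearson and ratios exact binomial intervals at 95%, from scipy 1.17.1. Genes with 5 CPM or more in either group were compared, and called at 2-fold on a log2 ratio with pseudocount 1 CPM. Folds in the text have no pseudocount. The ratio computation was tested on simulated counts. TMM scaling used edgeR 4.0.16. Named genes were the 9 members, at most 4 per list and direction with 10 CPM or more in d16 Dppa5a-high cells and 2-fold, and the 5 closest to Dazl and Stra8. Other genes were named after their values were seen. The tag library was not used here. Of the retinoic acid list, the genes at least 2-fold higher are not reported here.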

Additional observations from a re-analysis of the deposited data

How the results depend on the processing

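The 45 ratios of the 9 genes over 5 comparisons were recomputed under 9 alternatives: a pseudocount of 10 CPM, TMM scaling, means of CPM per cell, Dppa5a thresholds of 500 and 2000 CPM, cells with 2000 to 8000 genes, thinning to 5000 reads, removal of cells with 2-cell stage reads and, chosen after seeing the data, Dppa5a-high cells that also had Pou5f1 at 200 CPM or more. Of 405 values, 312 stayed within the counting interval, 93 moved beyond it and 0 changed sign. Of those that moved, 35 came with the larger pseudocount. The number of members at least 2-fold higher stayed within 1.5 times of the reported one except in d16+10p against naive, where 2 became 1 with a pseudocount of 10 CPM and 1 when thinned. The Dazl share of d16 Dppa5a-high cells was 80.6% at 3000 and 94.4% at 10000 reads, and the Stra8 share 46.6% and 62.8%. In the primed core, the Dazl share was 6.49% and 18.6%. The mean number of members per d16 Dppa5a-high cell was 3.44 at 10000 reads. With Stra8-high cells taken from 500 CPM, also chosen after seeing the data, the log2 ratio of Rec8 was 1.76 at d16 and 1.77 at d16+10p, that of Sycp2 at d16 0.65 in place of 1.52, and that of Tex11 at d16+10p 0.61 in place of 1.87. TMM moved the ratios of d16 to naive and to d16+10p Dppa5a-high cells by -0.13. No paired analysis was possible because the populations have no replicates.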
